A study of Mus musculus with 6 samples.

Results

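The 44 genes described here encode the choline and ethanolamine transporters, the enzymes that build phosphatidylcholine, phosphatidylethanolamine, phosphatidylserine and sphingomyelin from them, and the enzymes that remodel and break these lipids down. They were taken by gene symbol from a list of the pathway, out of 37620 gene identifiers in the count files, and 36 of the 44 had enough counts to be tested. Transcripts were counted by RNA sequencing in the mature adipocytes of brown fat, the heat-producing fat, which collect in the floating layer once the tissue has been digested with collagenase and spun. One group of 3 libraries was labelled PHOSPHO1 knockout and the other group of 3 wild type. All came from mice 6 weeks old on a C57BL/6 background, and each library pooled 3 mice, and the errors below are between pools of mice. How the knockout allele was made, and in which cells it acts, no source used here states.

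PHOSPHO1 is a phosphatase that removes the phosphate from phosphocholine and phosphoethanolamine, the same molecules that choline kinases and ethanolamine kinases make as the first committed step of phospholipid synthesis. In the Kennedy pathway these phosphorylated head groups are activated with CTP by a cytidylyl transferase and then joined to diacylglycerol, which gives phosphatidylcholine or phosphatidylethanolamine. These lipids form the bulk of the membranes of the many mitochondria of a brown adipocyte and the single layer that coats its lipid droplets. The question that the design puts to the pathway is whether transcripts of its other enzymes differ in brown fat of mice labelled as lacking this phosphatase.

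Phospho1 itself (ENSMUSG00000050860) was counted at a very low level and did not have fewer reads in the libraries labelled knockout. It had 18, 15 and 17 counts in those libraries, against 13, 5 and 5 counts in the wild-type libraries. All 3 libraries labelled knockout were above all 3 wild-type libraries, at 1.52 ± 0.26 CPM (the counts of the gene relative to the scaled total of its library) against 0.507 ± 0.202 CPM in wild type (SD, n = 3 each). This is a log2 fold change of 1.53 (95% interval 0.53 to 2.53), with an adjusted p of 0.056 in edgeR's quasi-likelihood test with Benjamini-Hochberg adjustment, and offsets for the length and GC content of transcripts made it 1.02 (adjusted p = 0.198). In the gene models, Zfp652 shares 89.6% of Phospho1's exonic bases in the same orientation and Abi3 shares 84.2% in the other. Reads of these genes may therefore be mixed, since the strand setting and annotation used for counting are not known here. The parts of the gene left in the knockout are not known either. The group is therefore called by its label throughout.

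The libraries held 10576800 to 13750632 counts in the group labelled knockout and 12132987 to 14239307 counts in wild type. Genes of the mitochondrial genome took 39.1% to 56.5% of the counts in the group labelled knockout and 39.3% to 54.3% in wild type. The 10 brown adipocyte markers were detected in every library, with Ucp1 at 3812 to 4865 CPM in the group labelled knockout and 2281 to 3283 CPM in wild type. They summed to 24713 to 32932 CPM in the group labelled knockout and 21165 to 28965 CPM in wild type. Much of each sum was Fabp4, at 12157 to 19665 CPM and 12140 to 17457 CPM. Their log2 fold changes ran from -0.81 for Lpl to 1.02 for Cox7a1, which alone passed an adjusted p of 0.05 (edgeR adjusted p = 0.045). Erythroid markers summed to 1208 to 3500 CPM in the group labelled knockout and 366 to 1376 CPM in wild type. Skeletal muscle markers reached 1079 CPM in wild-type library 3, against at most 108 CPM in the libraries labelled knockout and at most 79.0 CPM in the other wild-type libraries. Over the 12068 genes tested, 9.16% passed an adjusted p of 0.05, 197 higher and 908 lower in the libraries labelled knockout. With offsets that remove each library's trend with transcript length and GC content, 1 of the 12068 genes passed.

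None of the 36 tested genes passed that threshold, against the 9.16% of all tested genes. At an unadjusted p below 0.05 there were 3 of 36 (8.33%, against 30.8% of all genes): Ptdss1, with a higher value in the libraries labelled knockout (12.3% of all genes), and Etnk1 and Chdh, with lower values (18.6% of all genes). DESeq2 and limma-voom also called 0 members. Over all genes DESeq2 called 493 higher and 1350 lower in the libraries labelled knockout, and limma-voom 113 higher and 619 lower. At an unadjusted p below 0.05 limma-voom had 3 of 36 members and 3686 of the 12068 genes. DESeq2, run without that filter on low counts, had 4 of 43 members and 3728 genes, and 8 of the 43 had no adjusted p. The groups did not overlap for 9 members, 25% of those tested against 35.4% of all genes. In the libraries labelled knockout Ptdss1, Ptdss2, Pisd and Lpcat1 lay above all wild-type libraries (15.9% of all genes), and Slc44a1, Pcyt1a, Chpt1, Etnk1 and Selenoi lay below them (19.6% of all genes). The median log2 fold change of the 36 was 0.07, against 0.03 over all genes, and the members ran between -1.02 for Chdh and 1.12 for Lpcat2. For 21 of the 36 the 95% interval of the difference lay within 2-fold in either direction (58.3%, against 33.1% of all genes), so for these a larger change is outside the interval. Values above 0 were found for 20 of the 36 members, against 51.4% of all genes. Scaling on total counts alone, which moved the median of all genes from 0.03 to -0.23, left 10 above 0.

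**Figure D1:**
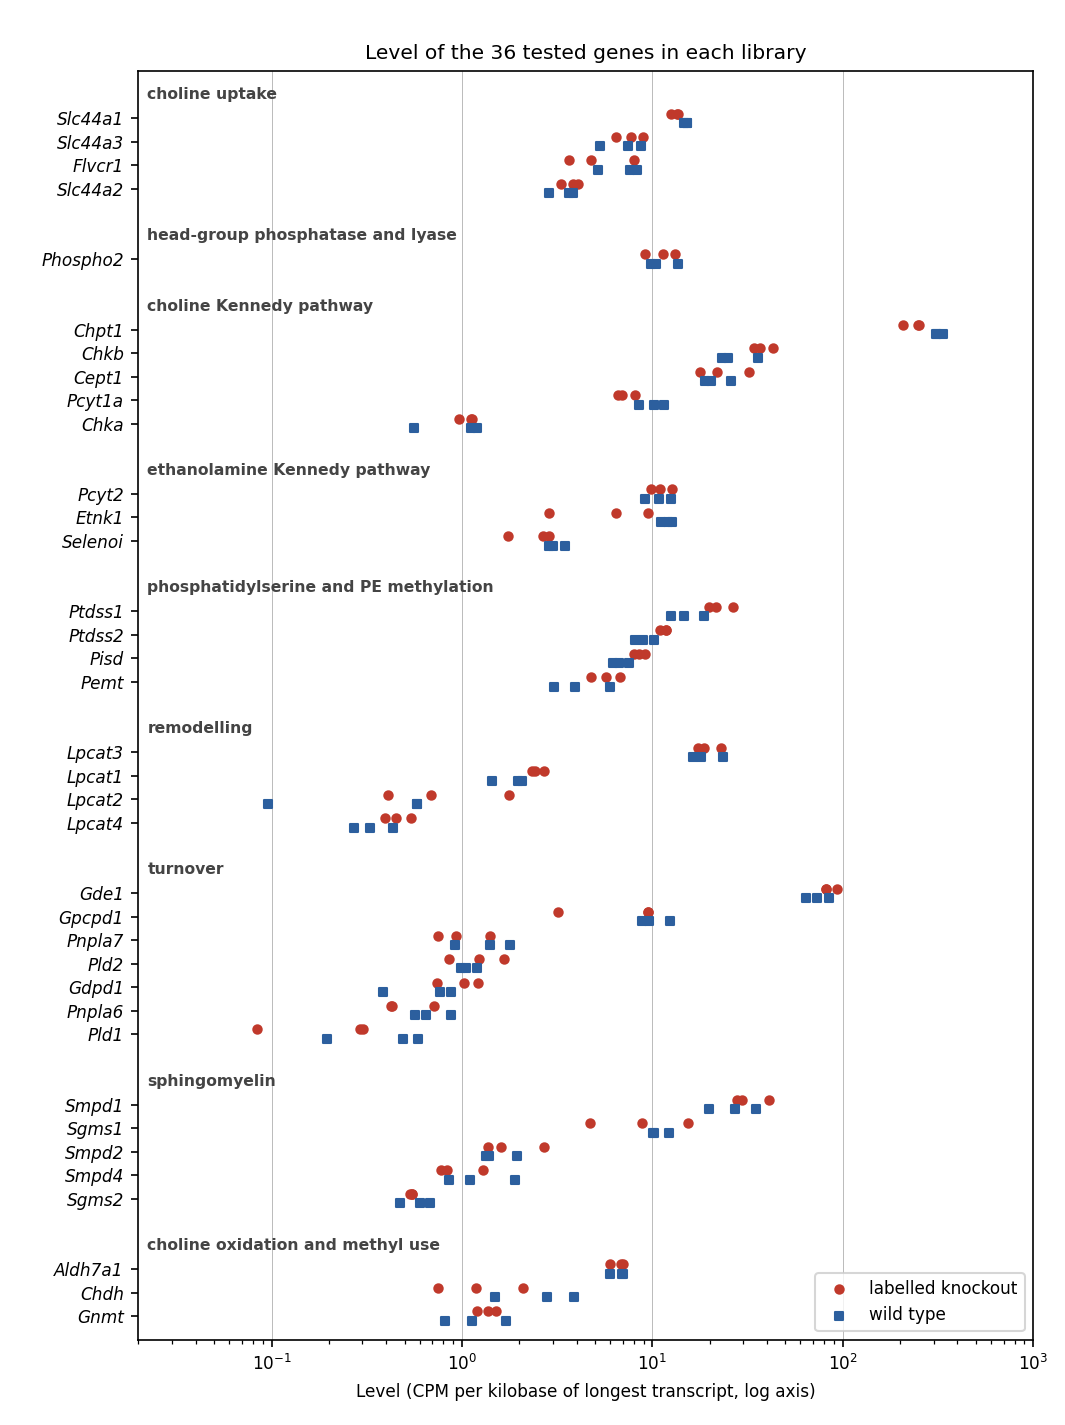
Level of each of the 36 tested genes in each library, in CPM per kilobase on a log axis, grouped by role. Circles are the libraries labelled knockout and squares the wild-type libraries (3 each); Chpt1 stands highest in every library, and the circles and squares of most genes overlap.

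Levels are given as CPM per kilobase of the longest annotated transcript, which allows genes of different length to be compared. The members covered a wide range, averaging 0.326 CPM per kilobase for Pld1 and 277 for Chpt1 over the 6 libraries. After Chpt1 came Gde1 at 79.8, Chkb at 33.0, Smpd1 at 30.2 and Cept1 at 22.8 CPM per kilobase. Chpt1 ranked 152 among all 12068 genes tested, and it and Gde1 were also the highest members when the median transcript length was used. The order below them changed with that length, where Smpd1 at 30.8 stood below Ptdss1 at 86.9 and Cept1 at 76.8 CPM per kilobase.

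Choline enters cells through transporters of the choline transporter-like family and through FLVCR1. Slc44a1, the most widely used of the choline transporter-like proteins, had the highest level of the group. It had 13.7, 13.5 and 12.5 CPM per kilobase in the libraries labelled knockout, against 15.1, 14.7 and 15.2 in the wild-type libraries. The groups did not overlap, but the gap was small, at a log2 fold change of -0.18 (95% interval -0.64 to 0.27; edgeR adjusted p = 0.552). With the length and GC offsets the value was 0.43, of the opposite sign. Slc44a3, a further member of that family, had 6.47, 7.74 and 8.90 CPM per kilobase in the libraries labelled knockout and 5.30, 7.44 and 8.77 in the wild-type libraries, with overlapping groups and a log2 fold change of 0.10 (95% interval -0.47 to 0.68). Slc44a2, a choline transporter also found in mitochondria, averaged 3.73 ± 0.397 CPM per kilobase in the libraries labelled knockout and 3.44 ± 0.519 in wild type (SD, n = 3 each). Flvcr1, a choline importer also known for heme export, averaged 5.47 ± 2.28 CPM per kilobase in the libraries labelled knockout and 7.04 ± 1.66 in wild type, with a log2 fold change of -0.37 (95% interval -1.05 to 0.32). For Flvcr1 it was -0.03 with the offsets, 0.08 with offsets from the median transcript, and -0.74 without library 1 labelled knockout to -0.17 without library 3 of that group. The relatives Slc44a4 and Flvcr2 were not tested: Slc44a4 had 1 count over all 6 libraries, and Flvcr2 had 0, 4 and 0 counts in the libraries labelled knockout against 3, 3 and 5 in wild type.

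Phospho2 is the closest relative of Phospho1 and is known to act on pyridoxal phosphate in the test tube. Its level was 13.1, 11.3 and 9.18 CPM per kilobase in the libraries labelled knockout, against 10.5, 13.7 and 9.79 in the wild-type libraries. The groups overlapped fully, at 11.2 ± 1.98 CPM per kilobase in the libraries labelled knockout and 11.3 ± 2.08 in wild type (SD, n = 3 each). Their log2 fold change was -0.02 (95% interval -0.55 to 0.52; edgeR adjusted p = 0.971), and with the offsets it was 0.47 (adjusted p = 0.175). As counted, Phospho2 stood above Phospho1, which averaged 0.794 ± 0.136 CPM per kilobase in the libraries labelled knockout and 0.265 ± 0.106 in wild type. Most exonic bases of Phospho1 are shared with Zfp652 and Abi3, so its level is uncertain and the order of these genes is not settled. Etnppl, which breaks down phosphoethanolamine by a lyase reaction, had 0, 0 and 1 counts in the libraries labelled knockout and 0, 1 and 0 in wild type, near the detection limit.

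In the choline branch of the Kennedy pathway Chpt1, which performs the last step to phosphatidylcholine, was the most abundant member in every library. Chpt1 (ENSMUSG00000060002) had 251, 206 and 248 CPM per kilobase in the libraries labelled knockout, against 313, 308 and 335 in the wild-type libraries. All 3 libraries labelled knockout lay below all wild-type libraries, with means of 235 ± 24.9 CPM per kilobase in the libraries labelled knockout and 319 ± 14.5 in wild type (SD, n = 3 each). On the log2 scale the difference was -0.44 (SE 0.223, 95% interval -0.93 to 0.05), which did not pass (edgeR adjusted p = 0.202). Its longest transcript has 4863 bases, and with the length and GC offsets the value was 0.46 (adjusted p = 0.251), of the opposite sign. Chpt1 made up 38.9%, 38.0% and 42.4% of the summed level of all 44 members in the libraries labelled knockout and 50.4%, 45.8% and 51.5% in the wild-type libraries.

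Choline kinase, the first enzyme of the branch, came mainly from Chkb. Chkb had 43.1, 34.0 and 36.6 CPM per kilobase in the libraries labelled knockout, against 23.3, 36.1 and 25.0 in wild type. Wild-type library 2 lay among the libraries labelled knockout, so the groups overlapped, and the log2 fold change of 0.43 did not pass (95% interval -0.10 to 0.96; edgeR adjusted p = 0.245). With the offsets it was 0.10. In the gene models 50.7% of the exonic bases of Chkb are shared with Gm44502 on the same strand, so its counts are uncertain. The other choline kinase, Chka, averaged 1.07 ± 0.0919 CPM per kilobase in the libraries labelled knockout and 0.956 ± 0.347 in wild type, and Chkb exceeded it 19.5-fold to 44.8-fold in every library.

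Pcyt1a encodes the cytidylyl transferase that makes CDP-choline, usually the slow step of the branch. Pcyt1a (ENSMUSG00000005615) had 6.60, 8.09 and 6.92 CPM per kilobase in the libraries labelled knockout, against 11.5, 8.56 and 10.2 in the wild-type libraries. The groups did not overlap, at 7.20 ± 0.785 CPM per kilobase in the libraries labelled knockout and 10.1 ± 1.47 in wild type (SD, n = 3 each). Its log2 fold change of -0.49 had a 95% interval that just included 0 (-0.99 to 0.01; edgeR adjusted p = 0.171), and with the offsets it was -0.11. Cept1, the enzyme that completes both phosphatidylcholine and phosphatidylethanolamine, averaged 24.0 ± 7.47 CPM per kilobase in the libraries labelled knockout and 21.7 ± 3.59 in wild type. Chpt1 exceeded Cept1 by 7.78-fold to 16.5-fold in every library. The share of Chpt1 in the pair was 88.6%, 90.4% and 93.3% in the libraries labelled knockout and 94.3%, 92.3% and 94.3% in wild type, with overlapping groups. Of the exonic bases of Cept1, 24.9% are also covered by genes on the opposite strand.

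Several steps of the pathway are encoded by a pair of genes, and for the cytidylyl transferase and the ethanolamine kinase of mouse brown fat nearly all counts came from one of the pair. Pcyt1b, the second cytidylyl transferase gene, had 0 counts in each library labelled knockout and 1, 0 and 1 counts in wild type, so Pcyt1a made up at least 99.8% of the pair in every library. Etnk2, the second ethanolamine kinase gene, had 5, 0 and 1 counts in the libraries labelled knockout and 2, 1 and 0 in wild type, and Etnk1 made up at least 98.3% of that pair. Flvcr1 likewise made up at least 97.5% of its pair with Flvcr2. Other pairs were more even: over the 6 libraries Slc44a1 made up 76.6% to 83.8% of its pair with Slc44a2, Pnpla6 31.5% to 38.4% of its pair with Pnpla7, and Pld1 6.42% to 36.0% of its pair with Pld2. These shares depend on the transcript length used. With median transcripts they were 79.3% to 85.8% for Slc44a1, 40.3% to 47.7% for Pnpla6 and 2.51% to 17.4% for Pld1. The promoters of the cytidylyl transferase and ethanolamine kinase genes are shown with their CG content, the base step that is dense in promoters of broadly expressed genes. These 2 pairs were chosen after their CG counts were seen, and other one-sided pairs did not all differ in this way. Flvcr1 had 19 CG and Flvcr2 had 20. The choline kinases went the other way, with 12 CG for the dominant Chkb and 24 for Chka. Chpt1 had 23 and Cept1 had 21, and Sgms1 had 41 and Sgms2 had 36. Each run is the 250 bases before the transcription start in RefSeq (GRCm38.p6, plus strand), 5′ to 3′, with every CG in capitals. They lie at chr16:32430671-32430920 for Pcyt1a, chrX:93674862-93675111 for Pcyt1b, chr6:143166980-143167229 for Etnk1 and chr1:133363322-133363571 for Etnk2.
Pcyt1a: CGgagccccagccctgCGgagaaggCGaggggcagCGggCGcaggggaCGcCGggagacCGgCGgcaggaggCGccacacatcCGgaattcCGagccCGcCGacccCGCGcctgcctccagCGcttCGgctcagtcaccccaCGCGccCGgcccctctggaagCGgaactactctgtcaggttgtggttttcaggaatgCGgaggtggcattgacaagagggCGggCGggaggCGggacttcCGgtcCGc
Pcyt1b: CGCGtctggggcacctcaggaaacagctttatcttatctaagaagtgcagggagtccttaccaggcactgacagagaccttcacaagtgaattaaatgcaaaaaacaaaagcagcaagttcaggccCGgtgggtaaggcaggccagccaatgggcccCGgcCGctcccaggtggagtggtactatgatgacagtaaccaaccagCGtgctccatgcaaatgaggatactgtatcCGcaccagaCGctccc
Etnk1: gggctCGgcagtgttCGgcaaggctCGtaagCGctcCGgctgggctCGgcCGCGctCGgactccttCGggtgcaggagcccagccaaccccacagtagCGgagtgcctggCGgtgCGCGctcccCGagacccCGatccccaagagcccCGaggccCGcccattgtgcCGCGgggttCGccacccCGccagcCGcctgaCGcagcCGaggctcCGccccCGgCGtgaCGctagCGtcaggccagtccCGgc
Etnk2: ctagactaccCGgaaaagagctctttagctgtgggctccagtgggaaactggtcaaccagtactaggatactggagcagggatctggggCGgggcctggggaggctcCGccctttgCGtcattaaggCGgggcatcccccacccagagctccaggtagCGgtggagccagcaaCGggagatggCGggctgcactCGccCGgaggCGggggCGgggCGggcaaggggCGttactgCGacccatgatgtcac

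Because CG reads the same on both strands, 1 strand was counted. Pcyt1a had 28 CG in its 250 bases and Pcyt1b had 8, and Etnk1 had 31 and Etnk2 had 15. Of all 32851 promoters of that length, 7.61% held at least as many CG as Pcyt1a, 43% as Pcyt1b, 5.19% as Etnk1 and 27.3% as Etnk2. For genes with several starts the start with the most CG was taken, and 39 of the 44 members had a promoter in the RefSeq table; Pcyt2, Ptdss1, Gpcpd1, Smpd3 and Aldh7a1 had none there. Among the tested members with a promoter the median was 19.5 CG (n = 32, between 2 and 41), against 17 for all tested genes with one. Among members too low to test the median was 8 (n = 7, between 1 and 20). These counts describe the letters of the window and no activity was measured there.

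**Figure D2:**
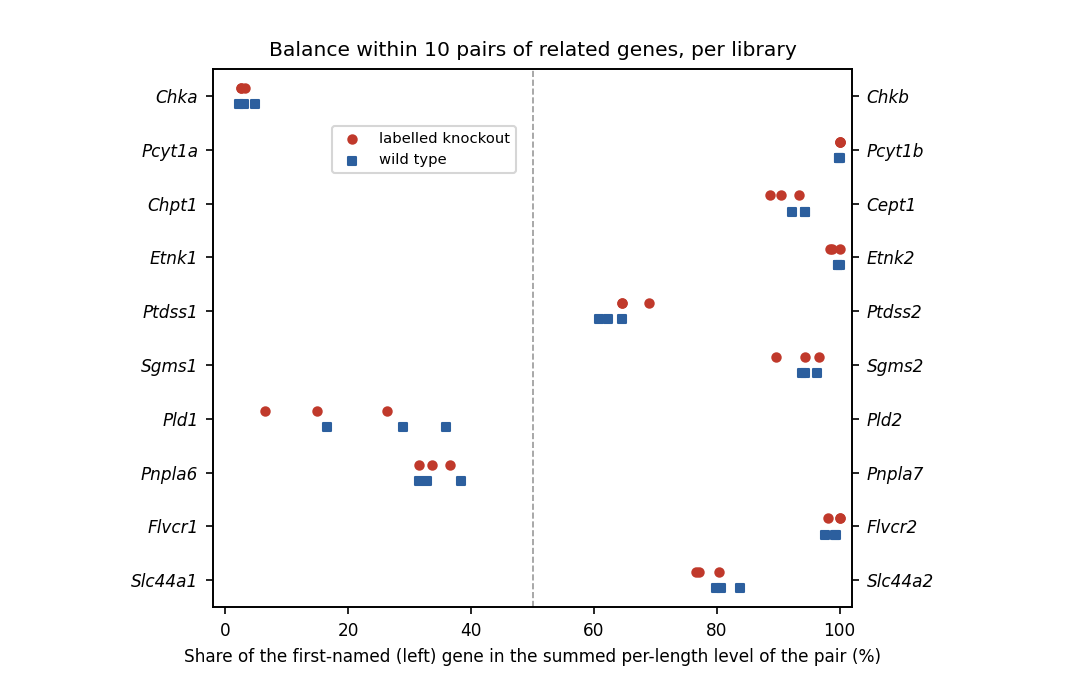
Share of the left-hand gene in the summed CPM per kilobase of each of 10 pairs of related genes, in percent, per library. Circles are the libraries labelled knockout and squares the wild-type libraries (3 each). Chkb, Pcyt1a and Etnk1 dominate their pairs in all 6 libraries, and the shares of the Pld1 and Pld2 pair spread most.

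The ethanolamine branch showed the widest spread between libraries at its first enzyme. Etnk1 (ENSMUSG00000030275), the ethanolamine kinase, had 9.54, 6.47 and 2.85 CPM per kilobase in the libraries labelled knockout, against 12.7, 11.1 and 12.1 in the wild-type libraries. All libraries labelled knockout lay below the wild-type libraries, and they differed among themselves more than 3-fold, at 6.29 ± 3.34 against 12.0 ± 0.809 CPM per kilobase in wild type (SD, n = 3 each). Etnk1 had a log2 fold change of -0.93 (SE 0.352, 95% interval -1.70 to -0.16), with an edgeR adjusted p of 0.106, the lowest of all members. Without library 1 of the group labelled knockout it was -1.35 and passed (edgeR adjusted p = 0.019), and without library 3 of that group it was -0.60 and did not. Its longest transcript has 6575 bases, and with the length and GC offsets the log2 fold change was -0.12 (adjusted p = 0.838). Over all alternatives its adjusted p lay between 0.019 and 0.928.

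The next steps of the ethanolamine branch differed less. Pcyt2, the cytidylyl transferase that makes CDP-ethanolamine, had 12.7, 9.80 and 10.9 CPM per kilobase in the libraries labelled knockout, against 10.9, 12.5 and 9.19 in wild type. The groups overlapped fully, and the log2 fold change was 0.04 (95% interval -0.49 to 0.56; edgeR adjusted p = 0.926). With the offsets it was -0.46 (adjusted p = 0.188), of the opposite sign. Selenoi, the selenoprotein that joins ethanolamine to diacylglycerol, averaged 2.43 ± 0.593 CPM per kilobase in the libraries labelled knockout and 3.12 ± 0.304 in wild type. Its groups did not overlap by a narrow margin, and its log2 fold change was -0.36 without and 0.41 with the offsets.

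The enzymes of phosphatidylserine and of phosphatidylethanolamine methylation all had higher mean levels in the libraries labelled knockout, though none passed. The 4 genes had a median log2 fold change of 0.38, against 0.03 over all genes. All 4 values were above 0 under each scaling tried, but with total counts alone Ptdss2 was at 0.07 and Pisd at 0.05. With the offsets Pemt stood at -0.17 and the other 3 above 0, and with offsets from the median transcript Pemt was at -0.03 and Ptdss2 at 0.08. Their summed level was 53.6, 45.7 and 46.4 CPM per kilobase in the libraries labelled knockout and 34.3, 42.5 and 29.9 in wild type, with no overlap. Ptdss1, Ptdss2 and Pisd each already lay above all wild-type libraries, as did 15.9% of all genes. The sum of the choline branch of the Kennedy pathway, mostly Chpt1, lay apart the other way. It was 334, 272 and 310 CPM per kilobase in the libraries labelled knockout and 368, 380 and 391 in wild type. Sums of the other roles overlapped.

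Ptdss1 (ENSMUSG00000021518) makes phosphatidylserine by exchanging the choline of phosphatidylcholine for serine, which releases choline. Its level was 26.4, 20.0 and 21.7 CPM per kilobase in the libraries labelled knockout, against 14.7, 18.7 and 12.6 in the wild-type libraries. The groups did not overlap, although wild-type library 2 came close, and the means were 22.7 ± 3.34 CPM per kilobase in the libraries labelled knockout and 15.3 ± 3.12 in wild type (SD, n = 3 each). Ptdss1 had a log2 fold change of 0.56 (SE 0.238, 95% interval 0.04 to 1.08), with an edgeR adjusted p of 0.136. It was 0.58 with the length and GC offsets (adjusted p = 0.175) and 0.42 to 0.73 when each library was left out in turn.

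Ptdss2, which makes phosphatidylserine from phosphatidylethanolamine in the same kind of exchange, had 11.9, 10.9 and 11.9 CPM per kilobase in the libraries labelled knockout, against 8.93, 10.2 and 8.11 in wild type. Its groups did not overlap either, and its log2 fold change was 0.34 (95% interval -0.14 to 0.83; edgeR adjusted p = 0.300). Ptdss1 exceeded Ptdss2 in every library, by 1.55-fold to 2.23-fold. Pisd, the mitochondrial decarboxylase that turns phosphatidylserine into phosphatidylethanolamine, had 8.55, 9.13 and 8.00 CPM per kilobase in the libraries labelled knockout and 6.72, 7.59 and 6.22 in wild type, again without overlap. Its log2 fold change was 0.32 (95% interval -0.17 to 0.81), and 20.9% of its exonic bases are shared with other genes on the same strand. Pemt, which methylates phosphatidylethanolamine to phosphatidylcholine mainly in liver, averaged 5.76 ± 1.00 CPM per kilobase in the libraries labelled knockout and 4.31 ± 1.51 in wild type, with overlapping groups.

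**Figure D3:**
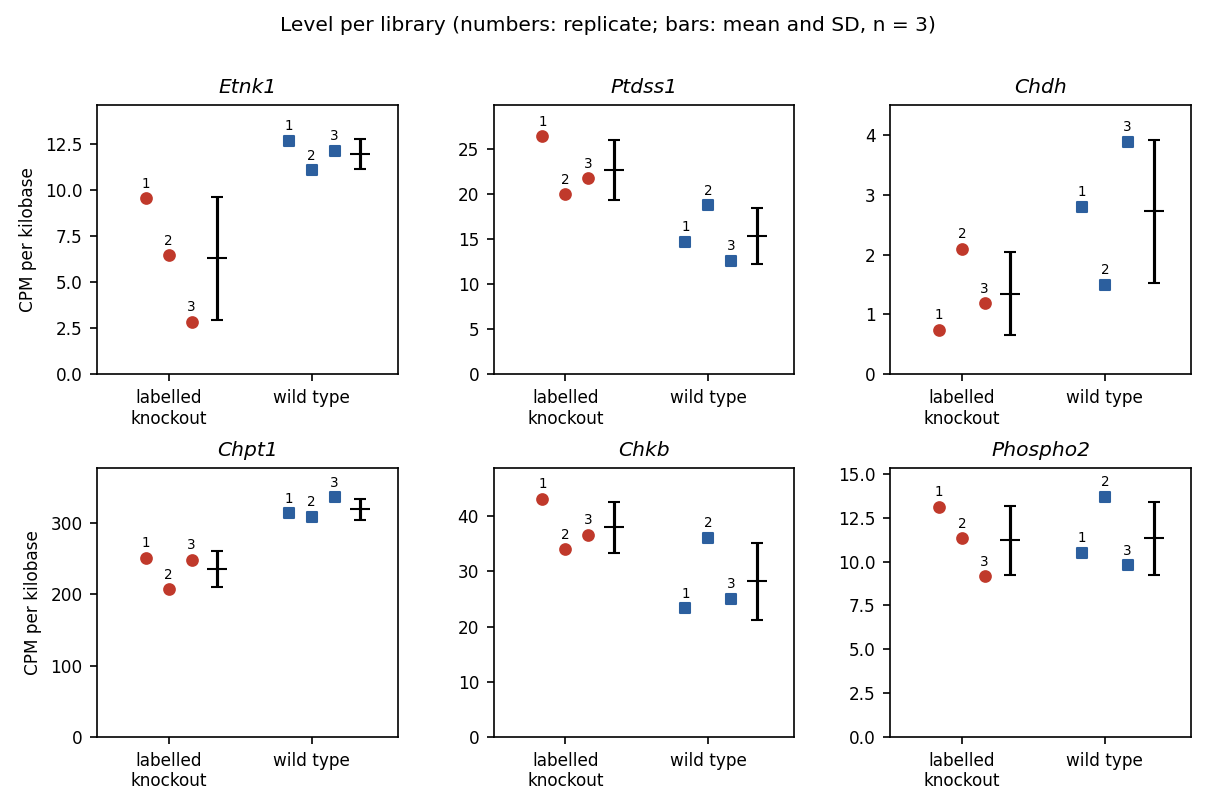
Level of 6 genes in each library, in CPM per kilobase, for the libraries labelled knockout (circles) and wild type (squares); small numbers give the replicate and bars the mean and SD (n = 3 each). The groups do not overlap for Etnk1, Ptdss1 and Chpt1 and overlap for Chdh, Chkb and Phospho2, and none of the 6 passed the adjusted threshold.

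Remodelling enzymes replace one fatty acid of a finished phospholipid. The 4 lysophosphatidylcholine acyltransferase genes all had log2 fold changes above 0, with a median of 0.44 and none past the threshold. The median was 0.03 over all genes and 0.38 over all genes with a longest transcript under 3000 bases. Lpcat2, Lpcat3 and Lpcat4 are of that short class. With total counts alone Lpcat3 stood below 0, at -0.22. With the offsets the median was 0.25 and Lpcat3 was at -0.26, and with offsets from the median transcript Lpcat4 was at -0.02. Lpcat3, which inserts polyunsaturated fatty acids, had 18.7, 17.4 and 22.9 CPM per kilobase in the libraries labelled knockout, against 16.5, 18.0 and 23.4 in wild type. The groups overlapped fully, at a log2 fold change of 0.03 (95% interval -0.49 to 0.55; edgeR adjusted p = 0.945). Lpcat1, best known for saturated phosphatidylcholine in lung, had 2.69, 2.41 and 2.33 CPM per kilobase in the libraries labelled knockout and 1.44, 1.97 and 2.07 in wild type, without overlap and with a log2 fold change of 0.44 (95% interval -0.15 to 1.03; edgeR adjusted p = 0.281).

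Lpcat2, an enzyme of inflammatory cells that also makes platelet-activating factor, had the largest fold change of all members and a very wide interval. It had 0.691, 0.408 and 1.78 CPM per kilobase in the libraries labelled knockout, against 0.581, 0.582 and 0.0956 in wild type, with overlapping groups. The log2 fold change was 1.12 (95% interval -0.24 to 2.48; edgeR adjusted p = 0.239), and it was 0.31 without library 3 labelled knockout and 0.68 without wild-type library 3. The 8 macrophage markers summed to 458, 234 and 507 CPM in the libraries labelled knockout and 203, 212 and 115 CPM in wild type, with the same libraries highest and lowest as for Lpcat2. That order came from Lyz2, which made up most of the sum: the other 7 markers summed to 67.6, 37.1 and 49.7 CPM in the libraries labelled knockout and 45.1, 51.9 and 46.9 CPM in wild type, with overlapping groups. Among these markers Lyz2 rose (edgeR adjusted p = 0.040), Cd163 fell (edgeR adjusted p = 0.048) and had 0 counts in library 3 labelled knockout, and the other 6 did not pass. The part of macrophages in the Lpcat2 values was not tested, and in such bulk samples fewer cells of a type and less RNA per cell cannot be told apart. Lpcat4, which prefers unsaturated fatty acids, averaged 0.463 ± 0.0747 CPM per kilobase in the libraries labelled knockout and 0.345 ± 0.0816 in wild type.

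Turnover enzymes release choline or glycerophosphate head groups from phospholipids. Gde1, a glycerophosphodiesterase, was the second most abundant member, with 81.3, 81.9 and 92.9 CPM per kilobase in the libraries labelled knockout, against 64.5, 84.5 and 73.4 in wild type. The groups overlapped at wild-type library 2, and the log2 fold change of 0.20 (95% interval -0.27 to 0.68; edgeR adjusted p = 0.534) became -0.29 with the offsets. Gpcpd1, which cleaves glycerophosphocholine, had 9.51, 9.54 and 3.21 CPM per kilobase in the libraries labelled knockout and 8.85, 9.56 and 12.4 in wild type. Library 3 labelled knockout was the lowest of the 6, as for Etnk1, and the log2 fold change was -0.47 (95% interval -1.26 to 0.32; edgeR adjusted p = 0.383). Without that library it was -0.12, and with the offsets 0.24.

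The other turnover genes were low. Of the phospholipases D, which release choline from phosphatidylcholine, Pld2 averaged 1.25 ± 0.408 CPM per kilobase in the libraries labelled knockout and 1.08 ± 0.109 in wild type. Pld1 averaged 0.226 ± 0.124 CPM per kilobase in the libraries labelled knockout and 0.425 ± 0.204 in wild type, with a log2 fold change of -0.87 and an interval of -2.02 to 0.28. The lysophospholipase genes Pnpla6 and Pnpla7 had log2 fold changes of -0.40 (95% interval -1.15 to 0.35) and -0.41 (95% interval -1.17 to 0.35). Gdpd1, a lysophospholipase D, stood at 0.56 (95% interval -0.34 to 1.46). Enpp6, a choline-specific glycerophosphodiesterase, had 3, 2 and 3 counts in the libraries labelled knockout and 4, 3 and 3 in wild type and was not tested.

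Sphingomyelin takes its phosphocholine from phosphatidylcholine through the sphingomyelin synthases and gives it back through sphingomyelinases. Smpd1, the acid sphingomyelinase of lysosomes, had 41.2, 28.0 and 29.5 CPM per kilobase in the libraries labelled knockout, against 27.2, 35.1 and 19.9 in wild type. The groups overlapped, with a log2 fold change of 0.26 (95% interval -0.32 to 0.84; edgeR adjusted p = 0.515). Sgms1, the synthase of the Golgi, had 15.5, 8.87 and 4.72 CPM per kilobase in the libraries labelled knockout and 12.2, 10.1 and 10.3 in wild type. The libraries labelled knockout lay on both sides of the wild-type range, and the log2 fold change was -0.16 (95% interval -0.93 to 0.61; edgeR adjusted p = 0.770). Sgms1 exceeded Sgms2, the plasma membrane synthase, by 8.67-fold to 28.2-fold in every library. This ratio depends on the transcript length used: Sgms1 made up 89.7% to 96.6% of the pair with the longest transcripts and 70.7% to 88.7% with the median ones. Sgms2 had a log2 fold change of -0.10 (95% interval -0.78 to 0.58), or 0.53 with the offsets, and the neutral sphingomyelinase genes Smpd2 and Smpd4 had 0.28 (95% interval -0.43 to 0.99) and -0.40 (95% interval -1.19 to 0.39). Smpd3, also a neutral sphingomyelinase gene, had 0 counts in each library labelled knockout and 2, 0 and 2 in wild type.

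Choline that is not built into lipids can be oxidised to betaine, a methyl donor. Chdh (ENSMUSG00000015970), the choline dehydrogenase of mitochondria that begins this route, had 48, 146 and 66 counts in the libraries labelled knockout, against 283, 125 and 247 in wild type. Per kilobase it had 0.745, 2.10 and 1.18 CPM in the libraries labelled knockout and 2.80, 1.50 and 3.89 CPM in wild type, so library 2 of each group crossed into the range of the other. The log2 fold change of -1.02 was the lowest of all members (SE 0.414, 95% interval -1.92 to -0.11; edgeR adjusted p = 0.124). It was -0.68 with the offsets (adjusted p = 0.254) and -1.28 with total counts alone (adjusted p = 0.054). Leaving out each library gave -1.51 without library 2 labelled knockout (adjusted p = 0.074) to -0.70 without wild-type library 3 (adjusted p = 0.359), and over all alternatives the adjusted p lay between 0.054 and 0.359. Wild-type library 3 is the one with the high skeletal muscle markers, whose part in the value was not tested.

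Aldh7a1, which oxidises betaine aldehyde to betaine as 1 of several substrates, had nearly the same level in both groups, with 5.99, 7.00 and 6.86 CPM per kilobase in the libraries labelled knockout and 6.94, 7.01 and 5.96 in wild type. Its log2 fold change was -0.01 (95% interval -0.49 to 0.48; edgeR adjusted p = 0.989). Gnmt, which uses methyl groups to make sarcosine chiefly in liver, averaged 1.36 ± 0.156 CPM per kilobase in the libraries labelled knockout and 1.22 ± 0.455 in wild type, with a log2 fold change of 0.16, or -0.45 with the offsets. Bhmt, which passes a methyl group of betaine to homocysteine and is also a liver enzyme, had 0 counts in all 6 libraries. A count of 0 in a library allows up to 3 counts, or 0.246 to 0.306 CPM in the libraries labelled knockout and 0.169 to 0.269 CPM in wild type, by counting error only.

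**Figure D4:**
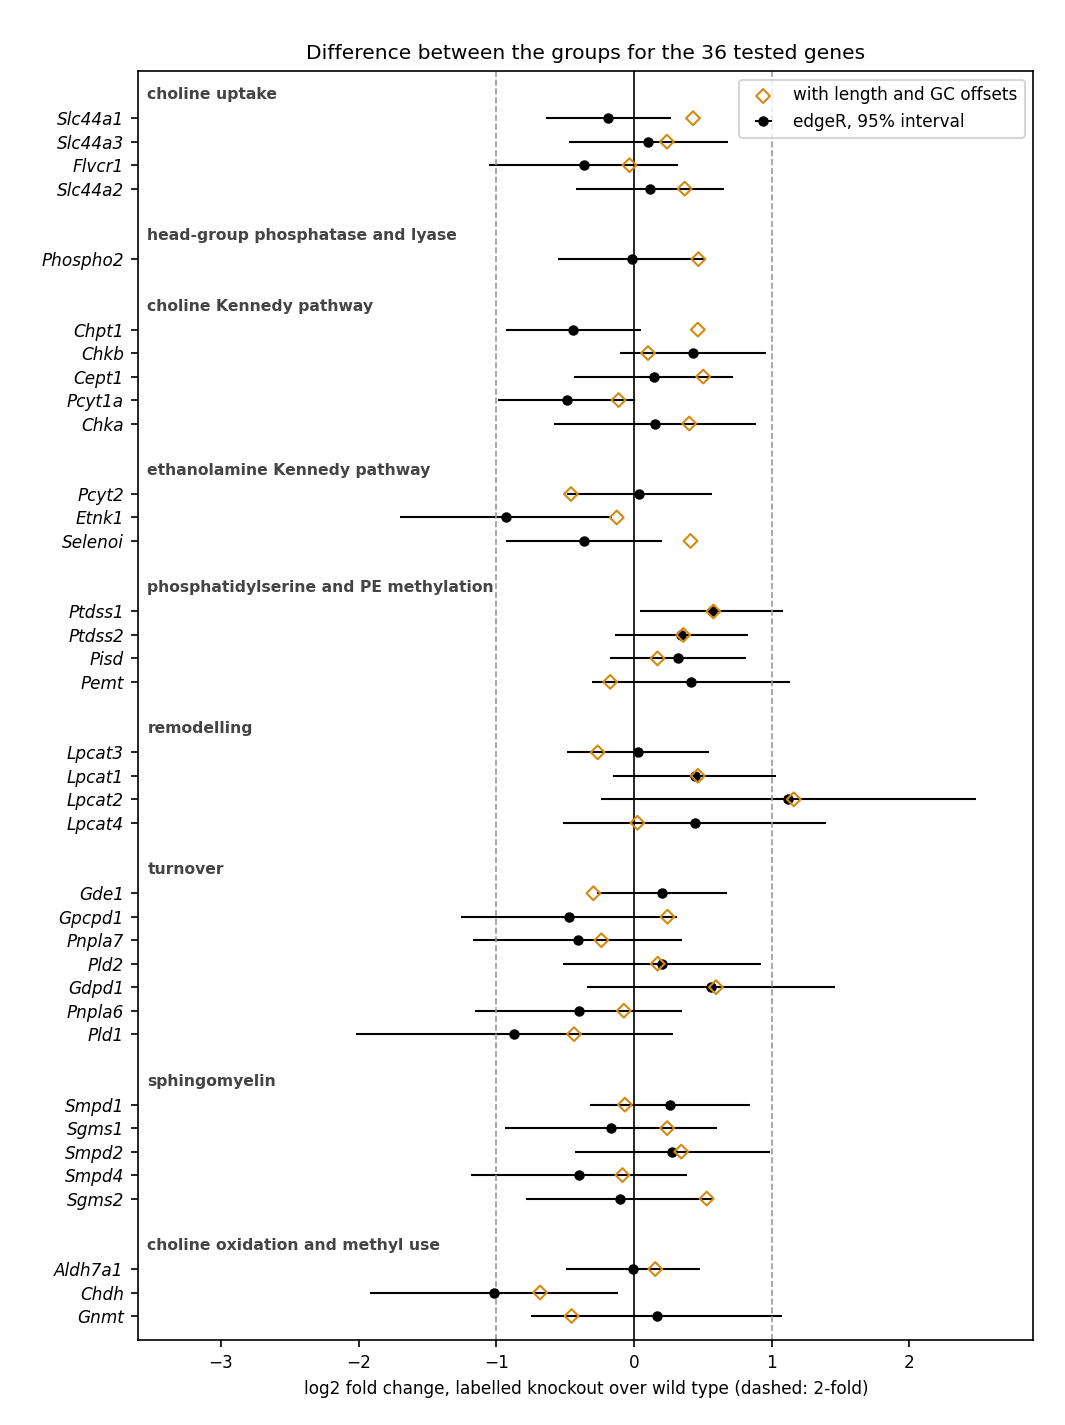
Log2 fold change of each of the 36 tested genes, libraries labelled knockout over wild type, with its 95% interval (black) and with length and GC offsets (open diamonds); dashed lines mark 2-fold. Most intervals include 0 and none of the genes passed the adjusted threshold; the diamonds lie on the other side of 0 for 14 genes.

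The differences followed transcript length among the members as they did over all genes. Spearman's rho between the longest transcript and the log2 fold change was -0.72 over the 36 members and -0.58 over 11863 genes, a description across genes that share the same 6 libraries. The 12 members under 3000 bases were all above 0, with a median of 0.23, though only 5 of them with total counts alone. The 13 members of intermediate length had a median of 0.12, with 6 below 0. Of the 11 members of 4500 bases or more 10 were below 0, or all 11 with total counts alone, with a median of -0.41. The same 3 length classes over all genes had medians of 0.38, -0.10 and -0.60. With the offsets rho was 0.09 over the members, 14 members changed sign, and 22 of 36 were above 0. The members' median was 0.17 with the offsets, against 0.03 over all genes, and 0.03 against 0.06 with offsets from the median transcript. With the offsets 0 members passed the adjusted threshold, against 0.00829% of all genes. With offsets from the median transcript 0 members passed too, against 1.84% of all genes. At an unadjusted p below 0.05 there were 5 with the length and GC offsets (23.1% of all genes). Slc44a1, Phospho2, Cept1 and Ptdss1 had higher values and Pcyt2 a lower one. What gave the trend with length was not tested.

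**Figure D5:**
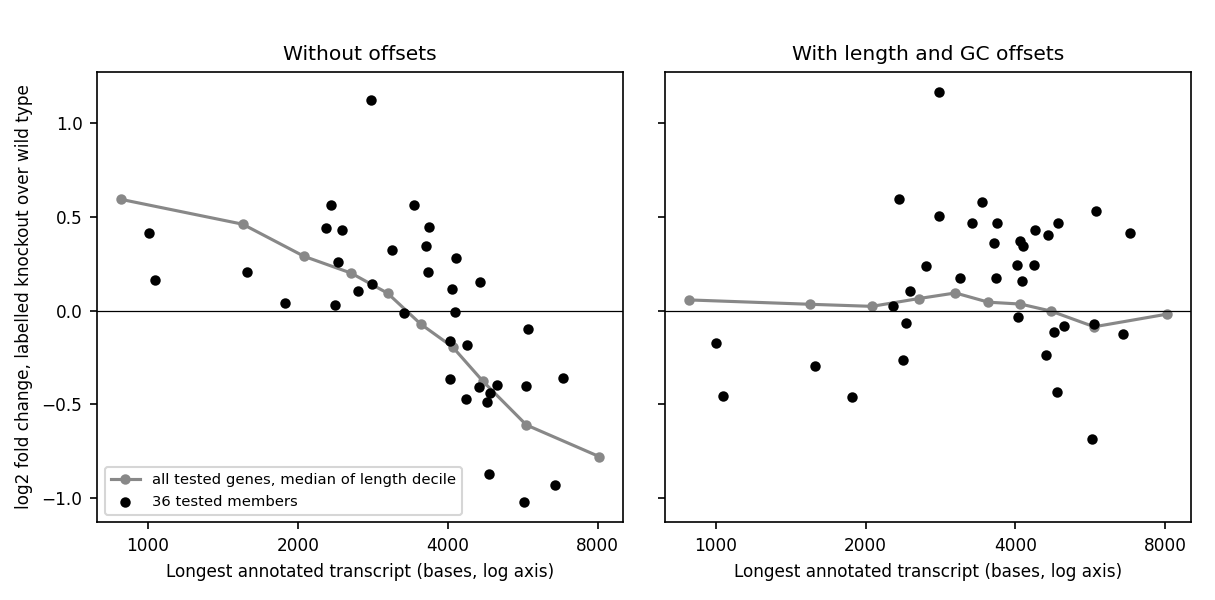
Log2 fold change, libraries labelled knockout over wild type, against the longest annotated transcript in bases (log axis), without offsets (left) and with length and GC offsets (right). Black points are the 36 tested members and the grey line joins medians of all tested genes by length decile; the members run downward with length on the left, with rho of -0.72, and not on the right, with rho of 0.09.

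Beyond the 44 genes, a list of 58 related genes covered the branches that feed from the same lipids, and 52 were tested. Of these 1 rose and 5 fell in the libraries labelled knockout, against 1.63% and 7.52% of all genes in those directions, and the median log2 fold change was 0.20. None of the 6 passed with the length and GC offsets, but Lpgat1 and Cers6 passed with offsets from the median transcript. None passed without library 3 labelled knockout or without wild-type library 1. Without wild-type library 2 the list had 11 calls, while over all genes 688 were called higher and 1383 lower. Each of the 6 kept its sign under each scaling, with the offsets and without any 1 library. They were picked for passing in these same libraries, so the kept sign is no separate support. Groups did not overlap for 20 of the 52 tested genes of the list (38.5%), against 35.4% of all genes.

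Cdipt, the phosphatidylinositol synthase, had 24.5, 19.4 and 24.7 CPM per kilobase in the libraries labelled knockout, against 12.0, 14.9 and 10.7 in wild type. It rose with a log2 fold change of 0.86 (edgeR adjusted p = 0.045), and with the offsets the value was 0.40. Lpin1, the phosphatidate phosphatase that supplies diacylglycerol to the Kennedy pathway, had 8.01, 10.9 and 11.2 CPM per kilobase in the libraries labelled knockout, against 21.4, 14.4 and 24.3 in wild type. It fell by 1.00 on the log2 scale (edgeR adjusted p = 0.039), or by 0.59 with the offsets. In both genes the groups did not overlap.

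Lpgat1, an acyltransferase of lysophospholipids, had 4.49, 4.90 and 3.72 CPM per kilobase in the libraries labelled knockout, against 12.5, 8.11 and 10.9 in wild type, and fell by 1.26 on the log2 scale (edgeR adjusted p = 0.0185). With the offsets Lpgat1 stood at -0.44 (adjusted p = 0.156), and with offsets from the median transcript at -1.09 (edgeR adjusted p = 0.049). Napepld, the phospholipase D that releases N-acylethanolamines from their membrane precursor, had 1.52, 1.16 and 0.954 CPM per kilobase in the libraries labelled knockout, against 3.43, 3.29 and 4.80 in wild type. It fell by 1.66 on the log2 scale (edgeR adjusted p = 0.016), and by 1.33 with the offsets (adjusted p = 0.062). Every library labelled knockout lay below every wild-type library for both genes.

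Enpp2, the secreted lysophospholipase D autotaxin, which frees choline from lysophosphatidylcholine, had 27.4, 37.6 and 26.2 CPM per kilobase in the libraries labelled knockout, against 50.7, 51.0 and 60.3 in wild type. Enpp2 fell by 0.83 on the log2 scale (edgeR adjusted p = 0.047), or by 0.64 with the offsets. Cers6, a ceramide synthase, had 0.138, 0.268 and 0.203 CPM per kilobase in the libraries labelled knockout, against 1.16, 0.678 and 0.789 in wild type. It fell by 2.10 on the log2 scale (edgeR adjusted p = 0.016), and by 1.34 with the offsets (adjusted p = 0.062). With offsets from the median transcript Cers6 stood at -1.91 (edgeR adjusted p = 0.049). The groups of both genes did not overlap.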

How the data were processed

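The authors deposited raw counts, whole numbers of reads per Ensembl gene, in 1 file per library. Per the labels' protocols, RNA of the floating adipocyte layer went into KAPA mRNA libraries. Per the submitters' processing notes, STAR 2.5.4b and the build mm9 were used; the counting program, its strand setting and annotation were not given in the sources used here. Symbols, lengths and exon overlaps came by identifier from GENCODE M21 (GRCm38), so no mm9 coordinates are printed.

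In R 4.3.3, edgeR 4.0.16 was run on all genes with filterByExpr (minimum count 10, minimum total 15), TMM scaling and a two-sided robust quasi-likelihood test, with Benjamini-Hochberg adjustment over 12068 genes and a threshold of 0.05. Intervals are 95% intervals from the F statistic. CPM were computed from the deposited counts on TMM-scaled library sizes. Offsets were smooths of log2 length and GC (mgcv 1.9.3, basis size 6, prior count 2). DESeq2 1.42.0, limma 3.58.1, other scalings, no filter on low counts, the replicate number as a block, and each library left out in turn were alternatives. The code was tested on simulated counts.

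The members and lists were chosen with earlier results of these data known. Values per library are given for Phospho1, members with an unadjusted p below 0.05, the 2 highest members of each role, and related genes past the threshold; those for Pcyt1a, Pisd and Lpcat2 were added after their values were seen.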

Additional observations from a re-analysis of the deposited data

How the results depend on the processing

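None of the alternatives except the replicate block and the fit without library 1 labelled knockout called a member, and both called Etnk1 (log2 fold change -1.08, adjusted p = 0.034, with the block); leaving out each library gave 0 to 1 member called. The replicate numbers did not pair the libraries: correlations of same-numbered deviations were 0.145, -0.534 and 0.0318. The block gave 223 genes higher and 976 lower over all genes, 1 member and 4 related genes. The 197 genes higher became 29 with total counts alone, 493 with DESeq2, 113 with limma-voom, 1 with length and GC offsets, 81 with offsets from the median transcript, and 0 to 688 without 1 library. The 908 lower became 1389 with total counts alone, 0 with the offsets, 141 with median-transcript offsets and 0 to 1383 without 1 library. No gene passed without wild-type library 1, where 2251 had an unadjusted p below 0.05. The 6 related genes became 10 with DESeq2, 3 with limma-voom, 0 with the offsets, 2 with median-transcript offsets and 0 to 11 without 1 library. The members' median of 0.07 became -0.18 with total counts alone, 0.17 with the offsets and -0.060 to 0.14 without 1 library.

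Among the members given library by library, signs were reversed as follows. With the offsets (longest transcript, then median transcript) the log2 fold change was 0.43 and 0.39 for Slc44a1, 0.47 and 0.53 for Phospho2, 0.46 and 0.18 for Chpt1, -0.46 and -0.40 for Pcyt2, -0.26 and -0.26 for Lpcat3, -0.29 and -0.10 for Gde1, 0.24 and 0.44 for Gpcpd1, and 0.24 and 0.12 for Sgms1, and with the longest transcript -0.065 for Smpd1 and 0.16 for Aldh7a1. With total counts alone it was -0.15 for Slc44a3, -0.23 for Pcyt2, -0.22 for Lpcat3, -0.064 for Gde1 and -0.0013 for Smpd1. With no filter on low counts Pcyt2 was at -0.020 and Lpcat3 at -0.017, and with RLE scaling Aldh7a1 was at 0.0036. Leaving out 1 library gave -0.078 to 0.26 for Slc44a3, -0.14 to 0.15 for Phospho2, -0.090 to 0.15 for Pcyt2, -0.10 to 0.17 for Lpcat3, -0.67 to 0.14 for Sgms1 and -0.10 to 0.068 for Aldh7a1. The cause was not tested. Of the other values of the named members and Phospho1, 229 kept their sign and their side of the threshold. Genes with 5 counts or fewer in every library could not be compared at this depth.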
